A study of Mus musculus with 12 samples.

Results

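The genes described here differed in the same direction between early and late libraries after photothrombosis. This held in libraries rich in bone RNA and in libraries rich in brain RNA. These genes were chosen by the change itself. All 12 libraries were fitted in a single model of late against early with a block for tissue content, and a gene was taken when 4 conditions held: an adjusted p under 0.05 for the late against early term, changes of the same sign in both blocks, a change of at least 1.5-fold in each block, and a mean of at least 1 CPM, a count scaled by library size, in the higher group of each block. Of 18068 genes tested, out of 22317 symbols in the table, 22 met these conditions, of which 17 were higher late and 5 were lower late.

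RNA-seq was made from wild-type male BALB/c mice, 8 weeks old, in which a clot was induced in the skull or in the brain by laser light after injection of Rose Bengal. The 4 groups held 3 libraries each. SB2 and SB4 were labelled as brain cortex on day 2 and day 4 after skull injury, and BS2 and BS6 as interparietal bone on day 2 and day 6 after brain injury. The early stage was thus day 2 in both series, and the late stage was day 4 in SB4 and day 6 in BS6. No uninjured group was analysed here, and all animals carried an injury. Tissue was harvested on the day given, so early and late libraries come from different animals. A change from early to late is therefore a difference between sets of animals. Time after injury and any other difference between these sets cannot be told apart.

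The labelled tissue went against the defining markers in SB2 and in BS2, which set the blocks. Col1a1, the main collagen of bone, stood at 33676, 33036 and 36335 CPM in SB2 and at 55309, 18663 and 77844 CPM in BS6, and did not exceed 9.37 CPM in BS2 and SB4. Snap25, a neuronal protein of transmitter release, stood at 3327 to 3512 CPM in BS2 and SB4 and did not exceed 55.3 CPM in SB2 and BS6. SB2 and BS6 are therefore called the bone-rich block, BS2 and SB4 the brain-rich block, and groups keep the names of their labels. By the labels, the day, the tissue and the injured site change together within a block and cannot be told apart, while the tissue and the site are balanced between early and late over both blocks. Whether the libraries of SB2 and BS2 were exchanged was not tested. If they were, each block would compare the days of a single tissue and injured site.

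Total counts were 14126082 to 18972654 per library, and the upper limit set by a count of 0, which is 3 counts, corresponded to 0.158 to 0.217 CPM. This limit and the intervals below cover counting error only. The replicates of BS6 differed most, with replicate 2 apart from the others: chi-square per degree of freedom was 198 and 213 in the pairs with replicate 2 and 34.5 in the pair without it, and 4.17 to 16.9 within the other 3 groups. No columns of the table were identical. The labels do not name the animals, so p-values measure only the spread between these libraries.

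The largest group with a known role belongs to the presentation of peptides by MHC class I. A class I heavy chain folds with beta-2-microglobulin around a short peptide made by the proteasome and moved into the endoplasmic reticulum by the TAP transporter, and the complex is shown at the cell surface to CD8 T cells and natural killer cells. Classical heavy chains such as H2-D1 and H2-K1 present to T cells, whereas the nonclassical H2-Q and H2-T proteins have narrower roles. Expression is low in resting brain, and interferons raise it in most cell types through IRF factors and NLRC5.

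**Figure D1:**
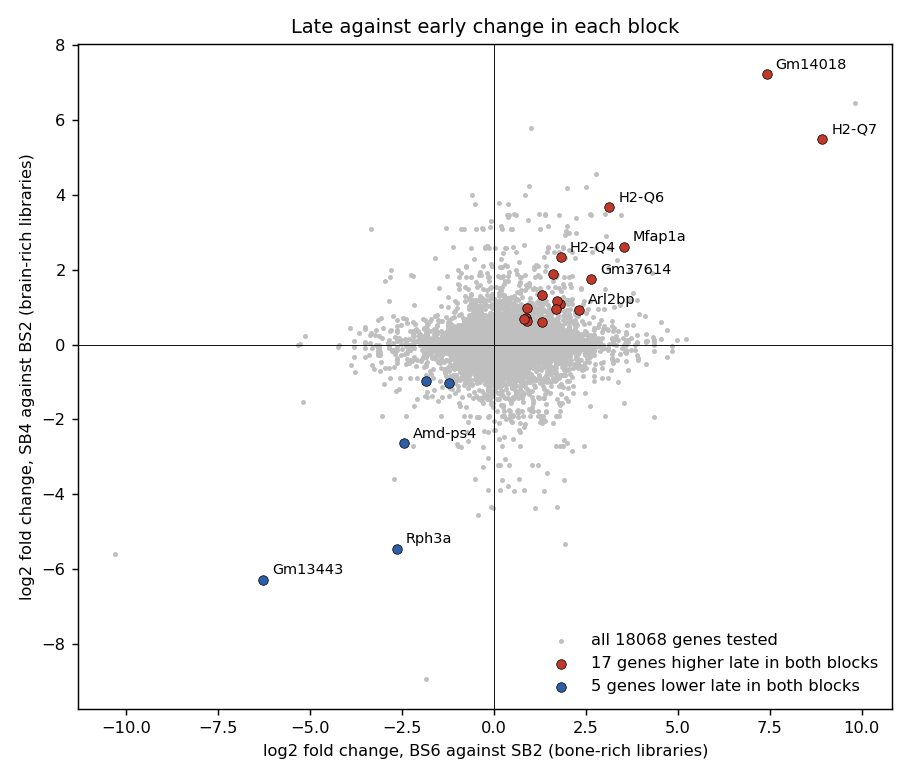
Each grey point is a gene tested, with its log2 fold change of BS6 against SB2 on the horizontal axis and of SB4 against BS2 on the vertical axis. The 17 genes higher late (red) lie in the upper right and the 5 genes lower late (blue) in the lower left, which the choice of the genes fixes.

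The values that chose the genes are given as a description. For the shared change, 39 of the 18068 genes had an adjusted p under 0.05 (0.216%). That count was 16 without SB2 replicate 2, 245 without BS6 replicate 2, 1045 with DESeq2 and 1551 with the average of both contrasts in a model of 4 group means. The 22 genes are 0.122% of those tested, with 0.0941% higher late and 0.0277% lower late. At a change of at least 2-fold in each block, 10 of the 17 higher and 4 of the 5 lower genes remained. Early and late libraries did not overlap in either block for 20 of the 22 genes. Over all genes tested, that held for 2.15% in the higher and 1.68% in the lower direction. The exceptions were H2-Q6, which overlapped in the brain-rich block, and Rph3a, which overlapped in the bone-rich block. Over all genes, the median absolute log2 change was 0.34 in the bone-rich block and 0.11 in the brain-rich block.

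**Figure D2:**
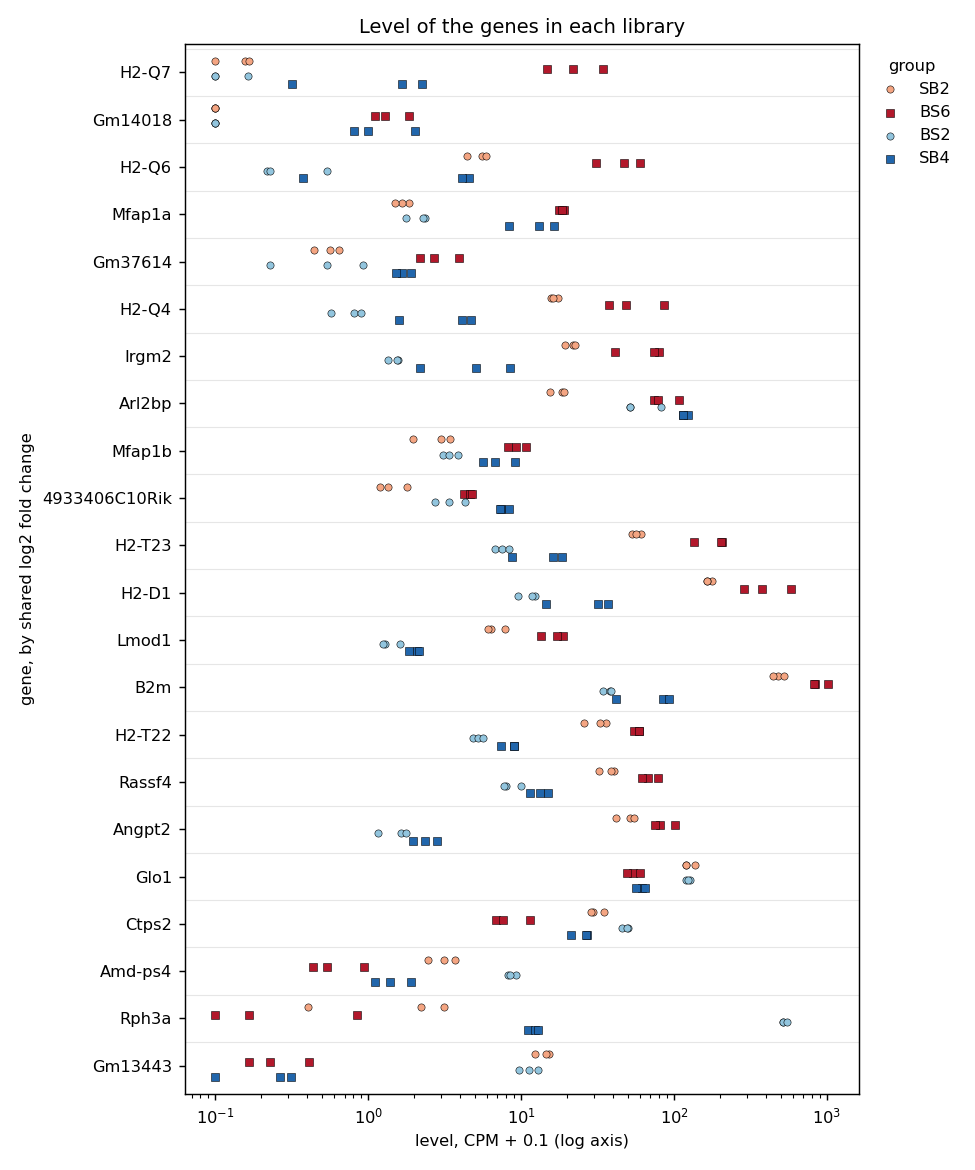
Level of each of the 22 genes in each of the 12 libraries, as CPM plus 0.1 on a log axis, with circles for the early groups (SB2, BS2) and squares for the late groups (BS6, SB4). The squares lie to the right of the circles of the same block in the upper 17 genes, except for H2-Q6 in the brain-rich block, and to the left in the lower 5, except for Rph3a in the bone-rich block.

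Among the class I genes, 6 heavy chains and the shared light chain were higher late in both blocks. In the brain-rich block fitted alone, B2m, H2-D1 and H2-T23 did not pass (adjusted p = 0.417, 0.366 and 0.268, edgeR's quasi-likelihood test). H2-Q4 and H2-T22 passed that test (adjusted p = 0.0160 and 0.0360). Library values are given in CPM in the order of replicates 1, 2 and 3. B2m, the light chain, stood at 479.5, 443 and 520.0 in SB2 and 1018, 829 and 817 in BS6, and at 34.4, 38.2 and 38.4 in BS2 and 84.5, 92 and 41.7 in SB4. H2-D1, a classical heavy chain, stood at 176, 164 and 165 in SB2 and 375, 579.7 and 288 in BS6, and at 9.42, 12.3 and 11.7 in BS2 and 31.9, 36.7 and 14.5 in SB4. All late libraries were above all early libraries of the block for both genes, and SB4 replicate 3 lay close above BS2. The log2 fold change of B2m was 0.89 (SE 0.23) in the bone-rich and 0.97 (SE 0.24) in the brain-rich block. That of H2-D1 was 1.30 (SE 0.31) and 1.31 (SE 0.33).

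The H2-Q genes lie side by side. H2-Q4 stood at 17.4, 15.5 and 16.1 in SB2 and 48.0, 86.1 and 37.7 in BS6, and at 0.474, 0.701 and 0.796 in BS2 and 3.98, 4.59 and 1.48 in SB4. H2-Q6 stood at 5.45, 4.33 and 5.81 in SB2 and 46.8, 59.5 and 31.0 in BS6, and at 0.119, 0.128 and 0.434 in BS2 and 4.48, 4.01 and 0.274 in SB4. The groups did not overlap for H2-Q4, whereas SB4 replicate 3 fell within the BS2 range for H2-Q6. Log2 fold changes were 1.81 (SE 0.36) and 2.35 (SE 0.51) for H2-Q4 and 3.13 (SE 0.58) and 3.68 (SE 0.93) for H2-Q6, in the bone-rich and the brain-rich block.

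H2-Q7, which encodes the nonclassical Qa-2 antigen, was near 0 in every early library. It stood at 0.0568, 0.0656 and 0 in SB2 and 21.6, 34.1 and 14.7 in BS6, and at 0, 0.0638 and 0 in BS2 and 1.56, 2.16 and 0.219 in SB4. Summed over replicates, 2 counts in SB2 faced 1097 in BS6, a ratio of 583 after scaling (95% counting interval 161 to 4821). In the brain-rich block, 1 count in BS2 faced 67 in SB4, a ratio of 60.6 (10.5 to 2430). The H2-Q transcripts share some sequence: of the windows of 150 bases, the read length, 6.87% in the longest H2-Q7 transcript, 5.99% in that of H2-Q6 and 10.5% in that of H2-Q4 also occur in transcripts of other genes, for H2-Q6 those of H2-Q7. How reads that fit several copies were assigned is not stated, so the split between these genes is uncertain. The mice were BALB/c, whereas reads were mapped to mm10 and the windows are of reference transcripts. How far differences in sequence between strain and reference alter the counts of class I genes was not tested.

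Both H2-T genes lie at the far end of the same cluster. H2-T23, which encodes Qa-1, the ligand of an inhibitory receptor on natural killer cells, stood at 53.1, 61.0 and 56.2 in SB2 and 136, 206 and 201 in BS6, and at 6.70, 7.40 and 8.25 in BS2 and 18.3, 16 and 8.61 in SB4. H2-T22, whose product is a ligand of some gamma-delta T cell receptors, stood at 25.7, 35.9 and 32.7 in SB2 and 58.8, 54.8 and 58.8 in BS6, and at 4.74, 5.10 and 5.57 in BS2 and 8.89, 8.87 and 7.24 in SB4. Neither overlapped between the stages of a block. Log2 fold changes were 1.67 (SE 0.24) and 0.94 (SE 0.26) for H2-T23 and 0.87 (SE 0.13) and 0.70 (SE 0.14) for H2-T22. Of the windows of H2-T22, 29.4% also occur in A930015D03Rik.

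Summed over the 6 heavy chains, the level was 275 to 280.4 CPM in SB2 and 686, 1021 and 631 CPM in BS6. In the brain-rich block the sum was 21.5 to 26.8 CPM in BS2 and 69.1, 72.4 and 32.3 CPM in SB4. The genes were chosen for being higher late, so the direction of the sum is given by the choice. SB4 replicate 3 was the lowest of its group, as it was for each of the 17 genes that were higher late. In BS6, replicate 2 was the highest for 12 of the 17. Libraries are of bulk tissue, in which more cells of a type and more RNA per cell cannot be told apart.

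**Figure D3:**
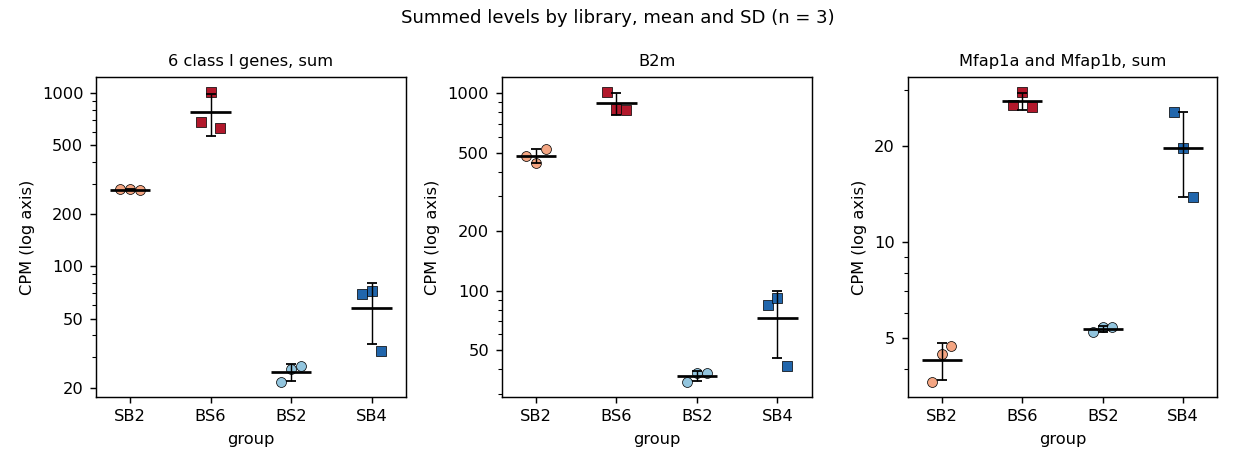
Summed level of the 6 class I heavy chains, level of B2m and summed level of Mfap1a and Mfap1b, in CPM on log axes; points are libraries, horizontal lines are means and bars are SD (n = 3). The class I sum is 275 to 280.4 CPM in SB2 and 631 to 1021 CPM in BS6, and 21.5 to 26.8 CPM in BS2 and 32.3 to 72.4 CPM in SB4.

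Irgm2, an immunity-related GTPase that acts on vacuoles holding pathogens and is induced by interferon, was higher late as well. It stood at 19.1, 21.7 and 22.5 in SB2 and 41.0, 79.6 and 73.4 in BS6, and at 1.24, 1.47 and 1.45 in BS2 and 4.98, 8.39 and 2.08 in SB4. The groups of a block did not overlap, and log2 fold changes were 1.62 (SE 0.37) and 1.90 (SE 0.47). Its neighbour Igtp, a GTPase of the same family, stood at 16.7, 18.0 and 17.4 in SB2 and 38.8, 90.7 and 54.7 in BS6, and at 2.01, 1.72 and 2.17 in BS2 and 5.69, 8.55 and 1.75 in SB4. Igtp overlapped in the brain-rich block through SB4 replicate 3 and was not among the genes chosen (adjusted p = 0.0559, edgeR's quasi-likelihood test).

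Promoters were searched for the interferon-stimulated response element, a site of IRF factors, since the genes above are known for their response to interferon. Windows from 250 bases before to 50 bases after the start, from RefSeq (GRCm38.p6), were found for 17 of the 22 genes. The letters GAAA followed by any 2 bases and GAAA again, or TTTC, any 2 bases and TTTC on the other strand, occurred in 4 of these 17 and in 3.73% of the 12535 tested genes with a window. The windows of the class I genes H2-D1, H2-Q4, H2-Q6 and H2-Q7 were searched too and held no match to these letters. The 4 windows with a match, which belong to other genes of MHC class I and to Irgm2, are shown 5′ to 3′. They are written on the strand of the gene with the match in capitals. They are B2m at chr2:122147437-122147736 on the plus strand, Irgm2 at chr11:58214727-58215026 on the plus strand, H2-T23 at chr17:36032652-36032951 on the minus strand and H2-T22 at chr17:36042693-36042992 on the minus strand.
B2m: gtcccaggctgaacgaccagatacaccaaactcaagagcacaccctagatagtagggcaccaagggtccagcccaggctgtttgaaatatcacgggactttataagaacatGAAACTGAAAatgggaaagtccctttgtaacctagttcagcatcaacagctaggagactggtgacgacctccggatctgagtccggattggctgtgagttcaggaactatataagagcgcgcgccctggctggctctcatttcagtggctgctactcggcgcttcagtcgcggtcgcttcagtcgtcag
Irgm2: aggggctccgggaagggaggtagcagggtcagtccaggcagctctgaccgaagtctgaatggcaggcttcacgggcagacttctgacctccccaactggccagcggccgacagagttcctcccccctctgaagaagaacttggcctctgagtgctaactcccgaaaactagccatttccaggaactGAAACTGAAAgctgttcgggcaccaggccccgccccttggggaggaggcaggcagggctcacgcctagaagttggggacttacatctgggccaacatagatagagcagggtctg
H2-T23: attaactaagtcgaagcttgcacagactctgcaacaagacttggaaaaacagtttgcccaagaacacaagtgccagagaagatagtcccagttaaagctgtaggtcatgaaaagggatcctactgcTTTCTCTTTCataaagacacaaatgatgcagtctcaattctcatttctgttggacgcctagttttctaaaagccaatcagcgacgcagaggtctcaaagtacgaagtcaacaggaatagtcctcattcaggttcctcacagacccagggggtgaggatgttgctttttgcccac
H2-T22: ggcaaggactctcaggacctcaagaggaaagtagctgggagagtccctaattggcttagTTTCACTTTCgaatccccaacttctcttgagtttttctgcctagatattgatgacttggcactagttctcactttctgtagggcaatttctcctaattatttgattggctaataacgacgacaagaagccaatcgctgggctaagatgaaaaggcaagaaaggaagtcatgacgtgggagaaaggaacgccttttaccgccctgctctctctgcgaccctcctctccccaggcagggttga
The match began at position -139 from the start in B2m, -64 in Irgm2, -124 in H2-T23 and -191 in H2-T22. In H2-T23 the D-box TTATGNAA, in the orientation TTNCATAA, overlapped it, and D-boxes were found in 1 of the 17 genes and in 2.62% of tested genes. The element ACANNNTGT, a loose form of the glucocorticoid response element, occurred in Ctps2, Mfap1a and Mfap1b, and in 5.57% of tested genes. None of the 17 held the E-box CACGTG (11% of tested genes), the cAMP response element TGACGTCA (3.30%) or the heat shock element, 3 units of GAA and TTC in turn with 2 bases between (0.566%). A match describes the letters of the reference window, which was not read in these BALB/c mice, and is not a measured site of binding.

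Genes of antigen presentation were also taken from a list of peptide loading, class I and class II genes. Of its 17 genes tested, 6 passed at an adjusted p under 0.05 (0.216% of all genes), in the higher direction, which were H2-Q4, H2-Q6, H2-Q7, H2-T23, H2-D1 and B2m, and 0 were lower. These 6 are among the 22 genes and were chosen by this change, so the count is a description. The genes of the list that met the conditions of choice were 1 without BS2 replicate 1 or any of the SB2 replicates, 2 without SB4 replicate 2, and 3 to 5 without BS6 replicate 1 or 3, BS2 replicate 2 or 3 or SB4 replicate 1. They were 7 without BS6 replicate 2, with Tap1 added, and 10 without SB4 replicate 3, with Nlrc5, Psmb8, Tap1 and Tap2 added. With DESeq2 they were also 10, of 111 genes in all, with H2-K1, Nlrc5, Psmb9 and Tap1 added. The 11 genes of the list that were not chosen had a median log2 change of 1.55 in the bone-rich and 0.54 in the brain-rich block, beside 0.07 and -0.01 over all genes tested, and 8 of the 11 were positive in both (29.8% of all genes). Tap1, a subunit of the peptide transporter, had log2 values of 1.35 (SE 0.31) and 1.12 (SE 0.38), and Nlrc5, the activator of class I transcription, 2.11 (SE 0.52) and 1.84 (SE 0.72), and with all libraries neither passed edgeR's quasi-likelihood test. The class II genes H2-Ab1, H2-Eb1 and Cd74 had bone-rich values of 1.69, 1.84 and 1.80 and brain-rich values of -0.95, -0.59 and -0.07, and did not pass it either.

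Of 25 interferon response genes tested, 0 rose in edgeR's quasi-likelihood test and Oas1a alone passed, in the lower direction. This count depends on the tool, since 11 of the 25 met the conditions of choice with DESeq2, which 111 genes met in all. Among the 11 were Gbp3, Gbp7, Ifi44, Iigp1, Irf7, Oas2, Oasl2, Rtp4, Usp18 and Zbp1. In edgeR's test, 2 of the 25 met the conditions without BS6 replicate 1, 3 without BS6 replicate 2 and 4 without SB4 replicate 3. Over all genes, 29, 55 and 51 met them in these 3 fits. The median log2 change of the 25 genes was 0.92 in the bone-rich and 1.26 in the brain-rich block. Of the 25, 21 had positive values in both (29.8% of all genes). Gbp7, an interferon-induced guanylate-binding protein, had log2 values of 0.98 (SE 0.28) and 1.13 (SE 0.31), and its adjusted p of 0.0559 in edgeR's quasi-likelihood test lay just over the threshold. Oas1a, an antiviral sensor of double-stranded RNA, stood at 10.2, 9.58 and 9.5 CPM in SB2 and at 0.237, 0.510 and 0.362 CPM in BS2, and had a count of 0 in all 6 late libraries. It was not among the 22 genes because it did not reach 1 CPM in the brain-rich block.

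A second set was formed by Mfap1a, Mfap1b and Gm14018, which lie next to each other on chromosome 2. Mfap1a and Mfap1b encode near-identical forms of MFAP1, a protein first named for microfibrils and known as a component of the spliceosome, and Gm14018 is annotated as an unprocessed pseudogene between them. Mfap1a stood at 1.76, 1.57 and 1.39 in SB2 and 17.7, 18.9 and 18.4 in BS6, and at 2.25, 2.17 and 1.66 in BS2 and 16.4, 13 and 8.28 in SB4. Mfap1b stood at 1.87, 2.89 and 3.33 in SB2 and 9.14, 10.6 and 8.08 in BS6, and at 2.96, 3.25 and 3.76 in BS2 and 9.03, 6.65 and 5.54 in SB4. The early ranges of both blocks overlapped for each gene, and the stages of a block did not. Log2 fold changes were 3.53 (SE 0.25) and 2.62 (SE 0.24) for Mfap1a and 1.78 (SE 0.25) and 1.09 (SE 0.25) for Mfap1b.

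Since these copies share reads, their sum was also taken. Of the 150-base windows of Mfap1a, 46.0% occur in other genes and 43.0% in Mfap1b, and of those of Mfap1b, 54.2% occur in other genes, Mfap1a first. The sum of Mfap1a and Mfap1b was 3.64, 4.46 and 4.72 CPM in SB2 and 26.8, 29.6 and 26.4 CPM in BS6, and 5.21, 5.42 and 5.43 CPM in BS2 and 25.5, 19.6 and 13.8 CPM in SB4. Each gene was chosen for this separation, which fixes that of the sum.

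Gm14018 had no count in any early library. It stood at 1.00, 1.19 and 1.75 in BS6 and at 1.92, 0.897 and 0.713 in SB4. Against the limit of 3 counts over the group, it was at least 21.6-fold higher in BS6 than in SB2 and at least 17.2-fold higher in SB4 than in BS2, from 61 and 57 counts, and the lower limits of the 95% counting intervals, which cover the late counts too, were 17.1 and 13.5. Of its windows, 24.8% occur in Wdr76, the gene beside Mfap1a, which stood at 8.73 to 11 CPM in SB2, 9.05 to 11.1 CPM in BS6, 5.79 to 7.78 CPM in BS2 and 5.86 to 8.44 CPM in SB4, so that its stages overlapped in both blocks.

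Glo1 and Gm13443 were lower late. Glo1 encodes glyoxalase 1, which removes methylglyoxal, a reactive side product of glycolysis, and Gm13443 is annotated as a processed pseudogene that shares 44.6% of its windows with Glo1. Glo1 stood at 119.5, 120.1 and 137 in SB2 and 53.7, 48.8 and 59.9 in BS6, and at 119.6, 126 and 123 in BS2 and 61.4, 64.0 and 56.2 in SB4. Gm13443 stood at 15.1, 12.1 and 14.5 in SB2 and 0.0667, 0.313 and 0.129 in BS6, and at 11.1, 12.8 and 9.62 in BS2 and 0, 0.211 and 0.164 in SB4. For both genes, the ranges of the blocks overlapped at each stage, and the stages did not overlap. Log2 fold changes of Glo1 were -1.21 (SE 0.09) and -1.02 (SE 0.09), and those of Gm13443 -6.27 (SE 0.42) and -6.29 (SE 0.43). The late libraries held 0 to 5 counts of Gm13443 each, against 133 to 265 in the early ones.

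Amd-ps4, a processed pseudogene of S-adenosylmethionine decarboxylase, was lower late as well. It stood at 3.58, 3.02 and 2.36 in SB2 and 0.334, 0.438 and 0.841 in BS6, and at 9.13, 8.10 and 8.32 in BS2 and 1.28, 1.00 and 1.81 in SB4, with log2 fold changes of -2.46 (SE 0.34) and -2.63 (SE 0.29). Of its windows, 58.0% occur in other genes and 58.0% in Amd-ps3, and Amd1 and Amd2 are also among these genes. The level of Amd-ps3 is not given here. Amd1, the enzyme of polyamine synthesis, overlapped between the stages in both blocks, at 44.5 to 52.7 CPM in SB2, 25.1 to 50.9 CPM in BS6, 93.2 to 100.3 CPM in BS2 and 89.8 to 95.1 CPM in SB4. Amd2, stood at 4.40 to 8.75 CPM in SB2 and 4.27 to 6.94 CPM in BS6, which overlapped, and at 18.7 to 20.7 CPM in BS2 and 22.4 to 23.8 CPM in SB4, where it was higher in all late libraries.

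Ctps2, a CTP synthase of nucleotide metabolism on the X chromosome, was lower late at levels that are well counted. It stood at 29.5, 28.5 and 35.0 in SB2 and 6.74, 11.3 and 7.5 in BS6, and at 49.8, 45.7 and 49.3 in BS2 and 27.0, 26.3 and 21.1 in SB4. The stages did not overlap, and log2 fold changes were -1.86 (SE 0.18) and -0.96 (SE 0.17).

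Rph3a encodes rabphilin, a synaptic vesicle protein of neurons that binds Rab3. It stood at 519, 514 and 549.8 in BS2 and at 11, 12.1 and 12.9 in SB4, a log2 fold change of -5.45 (SE 0.50). In the bone-rich block it stood at 2.1, 3.02 and 0.302 in SB2 and at 0.0667, 0.75 and 0 in BS6, from at most 46 counts a library, and the stages overlapped (log2 -2.65, SE 0.86). The neuronal marker Snap25 stood at 3327 to 3339 CPM in BS2 and 3445 to 3512 CPM in SB4. The cause of the lower level of Rph3a was not tested.

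Arl2bp, which binds the small GTPase ARL2 and serves cilia and mitochondria, was the only gene of the 22 whose change differed in size between the blocks by the test. It stood at 15.4, 18.3 and 19.0 in SB2 and 74.1, 108 and 78.0 in BS6, and at 51.2, 81.6 and 51.4 in BS2 and 115, 123 and 115 in SB4. The stages did not overlap, and log2 fold changes were 2.31 (SE 0.20) and 0.93 (SE 0.19). The difference of 1.37 (SE 0.27) passed the quasi-likelihood test of edgeR, adjusted over all genes (adjusted p = 0.0267). By the same test, the difference for Ctps2 was -0.90 (SE 0.25, adjusted p = 0.0679). For the other 20 genes the adjusted p was 0.148 or more. Among these, H2-Q7 (3.44, SE 3.66) and Rph3a (2.80, SE 1.25) had larger differences than Arl2bp, with wide errors. For Gm14018, without counts early, the SE was 297. A gene that did not pass is thus not shown to change by the same size in both blocks.

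The noncoding 4933406C10Rik, a lincRNA, stood at 1.25, 1.71 and 1.09 in SB2 and 4.14, 4.57 and 4.66 in BS6, and at 4.21, 2.61 and 3.26 in BS2 and 7.25, 8.18 and 7.13 in SB4. Its stages did not overlap, and log2 fold changes were 1.72 (SE 0.23) and 1.16 (SE 0.21). Gm37614, an entry of 210 bases that is not yet classed, stood at 0.341, 0.459 and 0.544 in SB2 and 2.07, 3.81 and 2.59 in BS6, and at 0.830, 0.128 and 0.434 in BS2 and 1.56, 1.79 and 1.43 in SB4. The stages did not overlap, and log2 fold changes were 2.64 (SE 0.45) and 1.75 (SE 0.47). Of its windows 93.4% occur in Noct or Gm42860, so its reads are uncertain.

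Vessel and signalling genes were among the smaller changes. Angpt2, a ligand of the endothelial receptor TIE2 that loosens vessel walls, stood at 41.8, 51.4 and 54.6 in SB2 and 81.3, 74.9 and 102 in BS6, and at 1.07, 1.53 and 1.66 in BS2 and 2.70, 2.27 and 1.86 in SB4. Lmod1, an actin nucleator of smooth muscle, stood at 6.25, 7.74 and 5.93 in SB2 and 13.4, 18.6 and 17.1 in BS6, and at 1.19, 1.15 and 1.52 in BS2 and 1.99, 2.06 and 1.75 in SB4. Rassf4, a RAS-association domain protein, stood at 40.5, 32.1 and 38.8 in SB2 and 67.0, 78.4 and 61.7 in BS6, and at 9.90, 7.91 and 7.60 in BS2 and 14.9, 13.1 and 11.4 in SB4. None of the 3 overlapped between stages of a block. Brain-rich log2 changes were 0.68 (SE 0.23) for Angpt2, 0.59 (SE 0.21) for Lmod1 and 0.63 (SE 0.15) for Rassf4, and bone-rich ones 0.80 (SE 0.16), 1.30 (SE 0.17) and 0.89 (SE 0.14).

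These 3 genes lay just inside the limit of 1.5-fold, a log2 change of 0.58. Just outside, the smaller of both changes was 0.56 for Maml3, a coactivator of Notch, 0.55 for C1qb, a subunit of complement C1q, and 0.53 for Col20a1, a collagen. In all, 17 of the 39 genes with an adjusted p under 0.05 were left out: 7 for a change under 1.5-fold in a block and 10 for a level under 1 CPM in a block. Of the 15 complement genes tested, C1qb and C1qc passed the adjusted p and 0 were lower.

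Position was not used in the choice. The 22 genes were all found in GENCODE M21 (mm10), and 7 lie on chromosome 17, which holds 4.59% of the tested genes, and 5 on chromosome 2, which holds 7.69%. The 6 class I heavy chains lie between the starts and ends of H2-D1 and H2-T22, chr17:35262730-36042747, where 31 genes were tested. The other 25 genes there had shared log2 changes from -0.68 to 2.32 with a median of 0.00, 9 were positive in both blocks, and 0 passed the adjusted p. The highest of them were other class I genes, H2-Q5 at 2.32 and H2-T24 at 1.13. H2-K1, at the other end of the complex, had a value of 1.22 (SE 0.32). Glo1 (chr17:30584936-30626871) lies before H2-D1, and the stretch from Glo1 to H2-T22 holds 173 tested genes.

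Mfap1b, Gm14018 and Mfap1a are the 3 tested genes of chr2:121460235-121506665, and B2m (chr2:122147686-122153083) follows after 6 other tested genes, whose shared log2 values lay between -0.31 and 0.10. For each of the 22 genes, the nearest tested gene on each side was taken, which gave 42 different genes, 7 of them among the 22. The other 35 had a median absolute shared change of 0.37, and 2 of them passed the adjusted p, both beside Rph3a (chr5:120940499-121010092). These were Oas1a, given above, and Gm42656, at 3.79, 2.93 and 4.56 CPM in BS2 and at 0 in SB4. Within the same cluster, Oas1c went the other way in the brain-rich block, from 1.30, 1.47 and 1.37 CPM in BS2 to 83.0, 68.3 and 78.7 CPM in SB4, and stood at 1.00 to 4.25 CPM in the bone-rich libraries. H2-Q5, between H2-Q4 and H2-Q6, did not pass (SE 0.43, adjusted p = 0.0559).

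**Figure D4:**
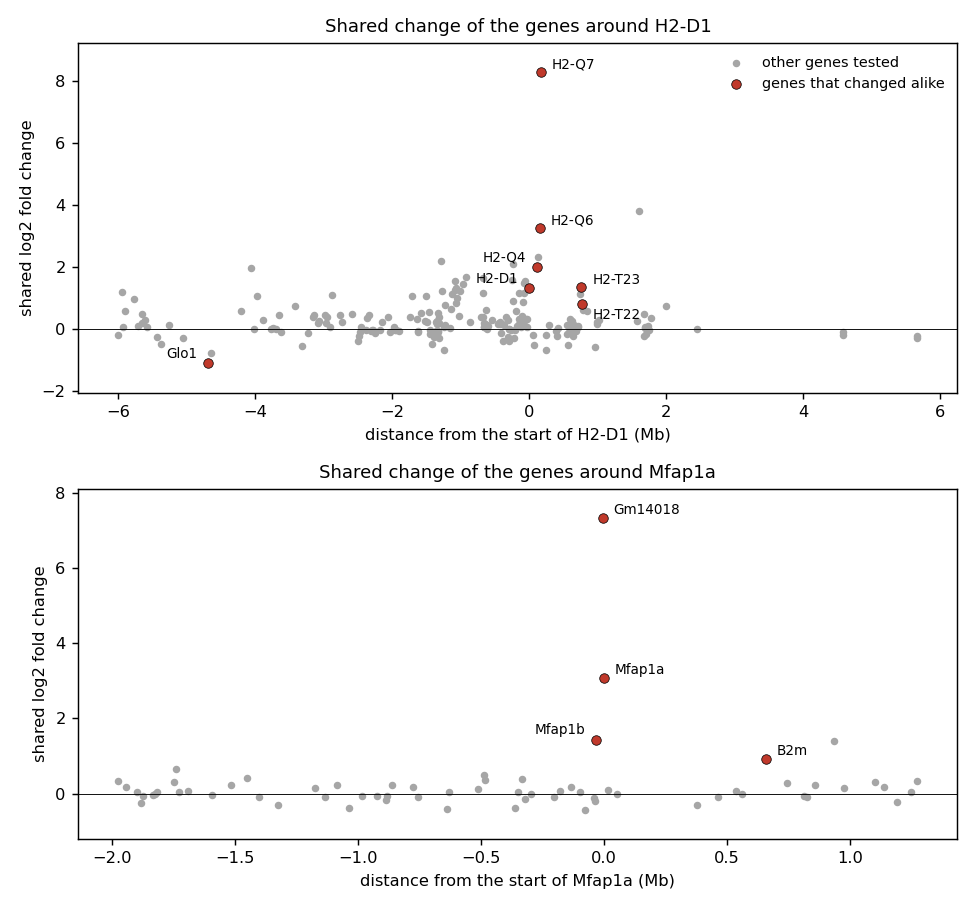
Shared log2 fold change, late against early, of the genes around H2-D1 on chromosome 17 and around Mfap1a on chromosome 2, by distance from the start of that gene in Mb; red points are genes that changed alike and grey points are the other genes tested. The 6 class I genes that changed alike stand within 0.78 Mb, where the other genes range from -0.68 to 2.32, and Mfap1b, Gm14018 and Mfap1a lie together, with B2m beyond them.

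By class of gene, 17 of the 22 are protein coding, which 83.8% of the tested genes are. The rest are 2 processed pseudogenes, 1 unprocessed pseudogene, 1 lincRNA and 1 unclassed entry. Unprocessed pseudogenes are 0.252% and processed pseudogenes 3.45% of the tested genes.

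The contrast of bone-rich against brain-rich libraries was not itself part of the choice, but the condition of 1 CPM in each block left out genes nearly absent from a tissue, such as Ctse, which differed by 8.91 on the log2 scale, and so shapes the counts. The contrast was tested with edgeR's quasi-likelihood test, adjusted over all genes. The level was higher in bone-rich libraries for 10 genes and higher in brain-rich libraries for 5, and 7 did not pass. Over all genes, 43.2% and 41.7% passed in these directions, and nothing is read from the counts. Angpt2 differed by 5.18 on the log2 scale (SE 0.15, adjusted p = 4.04e-11), H2-Q4 by 4.37 (SE 0.31, adjusted p = 1.24e-07) and B2m by 3.65 (SE 0.18, adjusted p = 4.58e-09), higher in bone-rich. Rph3a differed by -6.79 (SE 0.44, adjusted p = 5.09e-08). Glo1 (-0.07, SE 0.06), Mfap1a (0.09, SE 0.17), Mfap1b (0.05, SE 0.17) and Gm13443 (0.32, SE 0.38) did not pass, with adjusted p of 0.357, 0.631, 0.807 and 0.444.

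Each block was also fitted alone on its 6 libraries, so that genes called in 1 block could be read in libraries that had no part in the call. Genes were called at an adjusted p under 0.05 and a log2 change over 1. With all 12 libraries in a model of 4 group means, 947 genes were called higher and 326 lower in the bone-rich block. In the brain-rich block that model called 3 higher and 5 lower. The fits of each block alone gave other counts. Of the 14624 genes tested in both, 240 were called in the bone-rich block (1.64%; 0.93% higher and 0.711% lower) and 21 in the brain-rich block (0.144%; 0.0889% higher and 0.0547% lower). Of 136 genes called higher in the bone-rich block, 93 had a positive value in the brain-rich block, against 49.6% of all genes, with a median log2 change of 0.10, and 5 were called there too. Of 104 called lower, 59 had a negative value, with a median of -0.01, and 3 were called. Read the other way, 13 genes called higher in the brain-rich block had a median of 1.17 in the bone-rich block, and 8 called lower had a median of -1.48. Of the 22 genes, which all libraries chose, 21 had an adjusted p under 0.05 in the bone-rich block alone and 12 in the brain-rich block alone.

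The 8 genes called in both blocks alone all went the same way, and 0 genes were called in opposite directions. The count of 8 fell to 0 without any of the SB2 replicates and to 2 and 3 without BS6 replicate 1 and replicate 3, and was 13 without BS2 replicate 2 and 24 without SB4 replicate 3. Higher late were Gm14018, Mfap1a, H2-Q4, Mfap1b and 4933406C10Rik, and lower late were Glo1, Amd-ps4 and Gm13443. These fits gave Mfap1a log2 changes of 3.50 (SE 0.16) and 2.61 (SE 0.25) and Glo1 -1.24 (SE 0.12) and -1.02 (SE 0.06). Across the 14624 genes, which are not independent replicates, the changes of both blocks had a Pearson correlation of 0.16 and a Spearman correlation of 0.14. Of the genes called in the bone-rich block, 104 of the 136 higher and 91 of the 104 lower had a brain-rich change under 1.5-fold.

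In lists of other processes and of cell types, counts are to be read against the 0.216% of all genes that passed, so a count of 0 is no result about a list. Counts with DESeq2 are to be read against the 111 genes that met the conditions of choice with it. Of 19 clock genes tested, 0 passed edgeR's test in either direction, and their median log2 changes were -0.12 and 0.02. Per1, a repressor of the clock, had values of 1.10 and 0.62 (adjusted p = 0.0978, edgeR's quasi-likelihood test) and met the conditions of choice without BS6 replicate 3 and with DESeq2. Of 4 genes kept to check the sex of the animals, 0 passed. Lmod1 alone passed among 10 mural and smooth muscle genes, whose summed level overlapped between stages in both blocks. Neurons (12 genes), oligodendrocytes (12), astrocytes (10), microglia (10), macrophages (12) and endothelium (14) had 0 genes passing edgeR's test, and 0 of these met the conditions of choice with DESeq2.

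Summed levels of some of the lists of processes and cell types did not overlap between the stages of a block. The lists not named below overlapped in both blocks. With 3 libraries a group, unrelated lists can separate too, and how many would do so was not tested. Nothing is read from the number of lists. In the bone-rich block, the 12 B lineage genes summed to 104 to 127 CPM in SB2 and 232 to 312 CPM in BS6, and the 5 T and NK cell genes to 8.17 to 10.2 CPM in SB2 and 16.9 to 23.2 CPM in BS6, without overlap, and both overlapped in the brain-rich block. Endothelium, striatum, thalamus and epidermis lists were also higher in all BS6 than in all SB2 libraries. Glucocorticoid, interferon, antigen presentation and complement lists were higher there too. Heat shock, unfolded protein, chemokine, cholesterol synthesis and nuclear oxidative phosphorylation lists were lower in all BS6 libraries. In the brain-rich block, the neuron, p53 target and antigen presentation lists were higher in all SB4 libraries. Reactive glia, hippocampus and replication histone lists were lower. Mitochondrially encoded genes were lower too, at 53531 to 65815 CPM in BS2 and 43183 to 44869 CPM in SB4, and overlapped in the bone-rich block. The 13 neutrophil genes summed to 1912 to 2776 CPM in SB2 and 2573 to 30837 CPM in BS6, with an overlap. They summed to 2.73 to 4.63 CPM in BS2 and 4.71 to 13.6 CPM in SB4. Of the 13, 11 were positive in both blocks (29.8% of all genes) and 0 passed edgeR's test. With DESeq2, the neutrophil genes S100a9 and Lcn2 met the conditions of choice, and S100a9 was also called in the brain-rich block alone (log2 2.04, SE 0.40, adjusted p = 0.0117, edgeR's quasi-likelihood test), against 3.07 (SE 1.11, adjusted p = 0.136) in the bone-rich block alone. The 9 erythroid genes summed to 1444 to 4685 CPM in SB2 and 8132 to 13393 CPM in BS6, and overlapped in the brain-rich block. The 20 immediate early genes summed to 939 to 968 CPM in BS2 and 1168 to 2159 CPM in SB4, and overlapped in the bone-rich block. Of these, Btg2 and Ier2 met the conditions with DESeq2, as did Cd4 of the T and NK cell list. The part of these lists in the changes of the 22 genes was not tested.

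The number of genes chosen depends on the libraries and on the model. It was 11 without SB2 replicate 2 or 3, and 14 without SB2 replicate 1, BS2 replicate 1, BS2 replicate 3 or SB4 replicate 1. It was 55 without BS6 replicate 2 and 51 without SB4 replicate 3, with all 22 kept in both cases. It was 111 with DESeq2 and 84 when the average of both contrasts in a model of 4 group means replaced the term of the blocked model. No direction of the 22 genes turned in any alternative. When each library was left out in turn, 8 genes met the conditions all 12 times: 4933406C10Rik, Amd-ps4, Ctps2, Glo1, Gm13443, H2-T22, Mfap1a and Rph3a. Angpt2 and B2m met them 2 times of 12, and H2-D1, Irgm2 and Lmod1 met them 4 times.

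**Figure D5:**
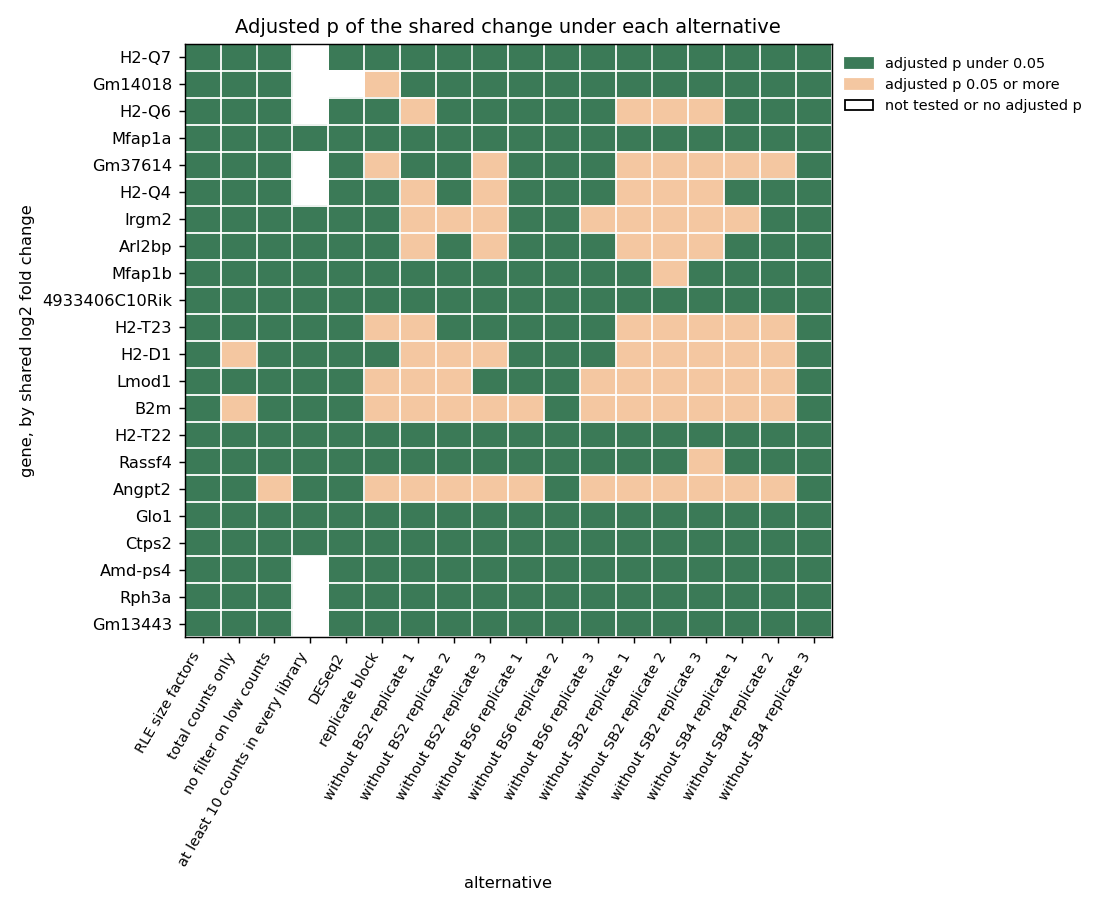
Whether the shared change of each of the 22 genes had an adjusted p under 0.05 (green), 0.05 or more (orange) or was not tested or got no adjusted p (white) under each of 18 alternatives. Mfap1a, 4933406C10Rik, H2-T22, Glo1 and Ctps2 are green in every column, and B2m, Angpt2 and Lmod1 are orange in most columns that leave out a library.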

How the data were processed

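RNA-seq libraries of 4 groups of 3 were analysed, grouped by the sample labels. RNA was extracted with TRIzol, poly(A)-selected and sequenced as paired reads of 150 bases. The authors cleaned reads with fastp, mapped them to mm10 with HISAT2 2.1.0, and the deposited table holds a raw count, not normalized, for each gene symbol. The counting program, the annotation, the use of strand and whether the counts precede a batch correction are not given in the sources used here, so overlapping genes and copies are uncertain. The count table held 0 columns of other samples, and columns were matched to samples by name.

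Counts were fitted with edgeR 4.0.16 in R 4.3.3: filterByExpr over the 4 groups with a minimum count of 10, TMM factors, a quasi-likelihood fit with robust dispersion, and Benjamini-Hochberg adjustment over all genes tested. The shared change came from an additive model of content block and stage, and changes within blocks, their difference and the content contrast from a model of 4 group means. CPM use TMM factors. SE was taken as the size of a log2 change over the root of its F value. DESeq2 1.42.0 served as an alternative. The script was tested on simulated data.

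The members and lists were chosen with earlier results of these data known. The rule for named genes took members whose higher group in each block reached 10 CPM without overlap of the stages, members of any list, the 3 genes nearest to the 1.5-fold limit on each side, and the clock and sex check genes. All 22 are named because their number was small, and their neighbours and Amd1, Wdr76 and Igtp were named after their values were seen. Alternatives were RLE factors, total counts, no filter, a minimum of 10 counts per library, DESeq2, a replicate block, the group-means average, other limits of size and level, each block alone and each library left out. Replicate numbers are shared by the groups, but the labels do not name the animals. Correlations of same-numbered libraries lay within the range of the other pairs, which does not exclude pairing. The replicate block is an alternative only.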

Additional observations from a re-analysis of the deposited data

Results flagged for a closer look

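Arl2bp changed by 2.31 in the bone-rich and by 0.93 in the brain-rich block on the log2 scale, and was flagged because these changes differ by a test of the difference itself. The difference was 1.37 (SE 0.27, adjusted p = 0.0267 over all genes, edgeR's quasi-likelihood test). All 3 late libraries were above all 3 early ones in each block. Early levels were 15.4 to 19.0 CPM in SB2 and 51.2 to 81.6 CPM in BS2, and late levels 74.1 to 108 CPM in BS6 and 115 to 123 CPM in SB4.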

How the results depend on the processing

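In 387 values of the 22 genes under alternatives, 0 reversed, 306 stayed under the threshold and 81 lost it, 72 of these among 264 values with a library left out. Gm14018 got no adjusted p from DESeq2 and is not counted there. Calls in this section for the shared change and the blocks needed an adjusted p under 0.05 and a log2 change over 1. They are therefore fewer than the counts by adjusted p alone given above. With the main settings, the shared change was called for 17 higher and 11 lower genes. The bone-rich block had 947 and 326, the brain-rich block 3 and 5, and the difference 258. Scaling by RLE factors or by total counts kept every count within 1.5 times. Without a filter, 13 genes were called alike in both blocks alone and 1 oppositely. With at least 10 counts in every library, where 14 of the 22 were tested and kept, the shared change was called for 8 higher and 2 lower genes, the bone-rich block for 520 and 189, the brain-rich block for 1 lower, 2 members were lower late, 4 genes were called alike, and 3 members were higher in brain-rich libraries. DESeq2 called 180 higher and 53 lower for the shared change, 24 and 15 in the brain-rich block and 706 for the difference, and chose 87 higher and 24 lower members. At the same limits, the average of the group means gave 119 higher and 45 lower for the shared change. It chose 64 higher and 20 lower members. Members were 10 higher at 2-fold, 11 lower without a minimum level, and 9 higher and 3 lower at 5 CPM. Blocks fitted alone called 182 higher and 121 lower genes in the bone-rich and 14 and 10 in the brain-rich block. The cause of these shifts was not tested, beyond the fewer genes or libraries used.

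The replicate block chose 18 genes, 16 of them among the 22, and left 0 genes called alike in both blocks alone, where 240 and 21 were called in the fits without it. The pairing of numbers was checked: in 1 of 18 same-numbered pairs was the correlation of deviations over 0.1 (range -0.17 to 0.13). Pairs of unlike number ranged from -0.19 to 0.28. With 3 replicates a group, this check cannot exclude that the numbers pair the libraries.

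The same limits of adjusted p and log2 change were used with each library left out in turn. The shared change was then called for 6 to 76 higher and 7 to 35 lower genes, and the difference for 62 to 586. Calls in the bone-rich block were 413 to 1298 higher and 182 to 478 lower, and in the brain-rich block 2 to 8 higher and 2 to 6 lower. Members were 6 to 44 higher and 5 to 15 lower. Genes called alike in both blocks were 0 to 24 and called oppositely 0 to 2. The highest counts of the shared change (76 and 35) came without BS6 replicate 2, that of higher members (44) without SB4 replicate 3, and those of the bone-rich block (1298 and 478) without BS6 replicate 1. Depth limits H2-Q7, Gm14018 and Gm13443, whose low groups held at most 5 counts a library.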

Other observations

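Zfp979, a zinc finger gene with an adjusted p under 0.05 that was left out for its level, had no count in any early library. It stood at 8.54, 4.88 and 7.69 CPM in BS6 and at 0.853, 0.475 and 0.713 CPM in SB4, and was named after its values were seen. Oas1b, in the cluster beside Rph3a, stood at 0.510 to 0.652 CPM in BS2 and 5.01 to 6.58 CPM in SB4, and at 7.61 to 8.53 CPM in SB2 and 4.13 to 13.7 CPM in BS6.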
